A study of Mus musculus with 6 samples.

Results

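The 40 genes described here encode the folding, translocation and stress machinery of the endoplasmic reticulum (ER) in mouse parotid gland. They were listed by name from 7 roles: 8 ER chaperones and lectins, 3 co-chaperones with a J domain, 4 protein disulfide isomerases, 7 subunits of the translocon and of the translocon-associated TRAP complex, 5 subunits of the oligosaccharyltransferase, 8 genes of ER-associated degradation, and 5 stress signalling genes. All 40 were found among the 52636 genes of the count tables, and all 40 passed the filter on low counts that kept 12885 genes. The stated rule of the list uses gene names and no measured value, but the list was chosen with earlier results of these data known.

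RNA from whole parotid gland was sequenced in 6 samples from FVB mice aged 28 days, 3 untreated and 3 irradiated. The mice carried no labelled transgene or mutation, and the design text calls the controls wild type. The labels name a single radiation dose of 5 Gy for every sample, and it was taken here to apply to the irradiated group. The time between irradiation and collection is not stated. Whether the samples are separate mice is not stated either, so the p-values measure the spread between these 3 and 3 samples.

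The parotid is a serous salivary gland whose acinar cells make and release large amounts of secreted protein. Such proteins enter the ER through the Sec61 channel, receive N-glycans from the oligosaccharyltransferase, and are folded by chaperones and disulfide isomerases. Proteins that fail to fold are drawn back out and degraded. When unfolded proteins build up, the sensors Ire1 (gene Ern1), Perk (gene Eif2ak3) and Atf6 start the unfolded protein response, which through Xbp1 and cleaved Atf6 raises transcription of many of the chaperone and degradation genes.

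The libraries held between 7108359 and 15036193 counts in genes. Irradiated replicate 2 had the lowest total, and 10.01% of its reads did not align, against 3.75% to 4.33% in the others. It also had 184 reads set aside for low alignment quality, where the others had 342749 to 491591. The acinar markers were all present, 11 of 11 in each library, and their summed level ran from 427308 to 513338 CPM (read counts scaled to a common library size) in untreated and from 380367 to 484630 CPM in irradiated libraries, lowest in irradiated replicate 2. Most of that sum was Bpifa2. Among the single acinar markers Car6, a secreted carbonic anhydrase, was called lower (log2 fold change -0.79, SE 0.18, edgeR adjusted p = 0.0329). Smr3a, Aqp5, Bhlha15 and Pip had all irradiated libraries below all untreated ones without passing the test. Such an order was found for 10.6% of all tested genes. The groups overlapped for the other acinar markers. Of these, Amy1 had a log2 fold change of 0.01, Slc12a2 0.05, Bpifa2 -0.08, Kcnn4 -0.32 and Cldn10 -0.37. Prol1 stood at 442 CPM in irradiated replicate 2 and at 32.8 to 40.9 CPM in the other 5 libraries. The summed B cell markers, of which 5 of 8 were detected in every library, stood at 0.525 to 18.4 CPM in untreated and 36.0 to 38.0 CPM in irradiated libraries. The T cell markers, 7 of 9 detected in every library, stood at 1.49 to 14.6 and 32.5 to 47.1 CPM. Plasma cells are themselves rich in ER. Their markers, 8 of 10 detected in every library, stood at 23.2 to 79.6 CPM in untreated and 56.9 to 58.4 CPM in irradiated libraries. The 79.6 CPM was in untreated replicate 1. Single plasma cell markers went both ways, with log2 fold changes from -1.76 for Igha to 1.74 for Pou2af1, and none of those tested was called. Summed macrophage markers, 8 of 8 detected in every library, were 107 to 122 CPM in untreated and 95.6 to 105 CPM in irradiated libraries, and skeletal muscle markers, 6 of 6 detected, were 486 to 607 and 157 to 478 CPM. Of 10 duct markers 1, Slc26a4, was at 0 throughout. The duct sum was 2178 to 2562 CPM in untreated and 1865 to 2192 CPM in irradiated libraries. Krt7 and Krt18 had all irradiated libraries below all untreated ones without passing the test, and the groups overlapped for the other duct markers. The summed basal and myoepithelial, fibroblast, endothelial and fat cell markers overlapped between groups. The part of these cell types in the values below was not tested. In whole tissue, fewer cells of a type and less RNA per cell cannot be told apart. The p53 target Cdkn1a, used as the check of irradiation, averaged 2.08 ± 0.222 CPM in untreated and 21.9 ± 3.97 CPM in irradiated libraries (SD, n = 3 each), with a log2 fold change of 3.38 (SE 0.19) and an adjusted p of 2.03e-09.

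No difference in these transcripts between irradiated and untreated glands was called. None of the 40 genes passed the test (edgeR's quasi-likelihood test, Benjamini-Hochberg adjusted p under 0.05 over all tested genes), where 129 of 12885 genes did, or 1.00%. At so small a share, 0 of 40 is near the background and does not set these genes apart. Of those 129, 84 were higher in irradiated glands (0.652%) and 45 were lower (0.349%). The smallest adjusted p among the 40 was 0.0908, for Edem2. At an unadjusted p under 0.05 there were 6 of the 40, 1 higher (Creld2) and 5 lower (Edem2, Sec61g, Herpud1, Dad1 and Sec61b). Over all tested genes this looser threshold took 15.0%, with 7.51% higher and 7.46% lower. With DESeq2, 0 of the 40 were called and 4 had an unadjusted p under 0.05.

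The fold changes of the 40 genes were small and their intervals bounded them closely. The log2 fold changes, irradiated over untreated, ran from -0.40 for Herpud1 to 0.23 for Creld2. Of the 40 fold changes, 35 lay within 1.2-fold in either direction. The 95% interval of the fold lay within 1.5-fold either way for 35 genes and within 2-fold for all 40. The outermost bounds were a fold of 0.587 for Dnajb9 and 1.37 for Creld2. A p that misses the threshold does not show that the levels were equal. In simulated counts, with changed genes drawn from all tested genes, the procedure called 17.7% of 1.5-fold and 61.9% of 2-fold changes. Real changes of such sizes can thus miss the threshold among tested genes at large. The rates were not worked out separately for genes at the levels of the 40.

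**Figure D1:**
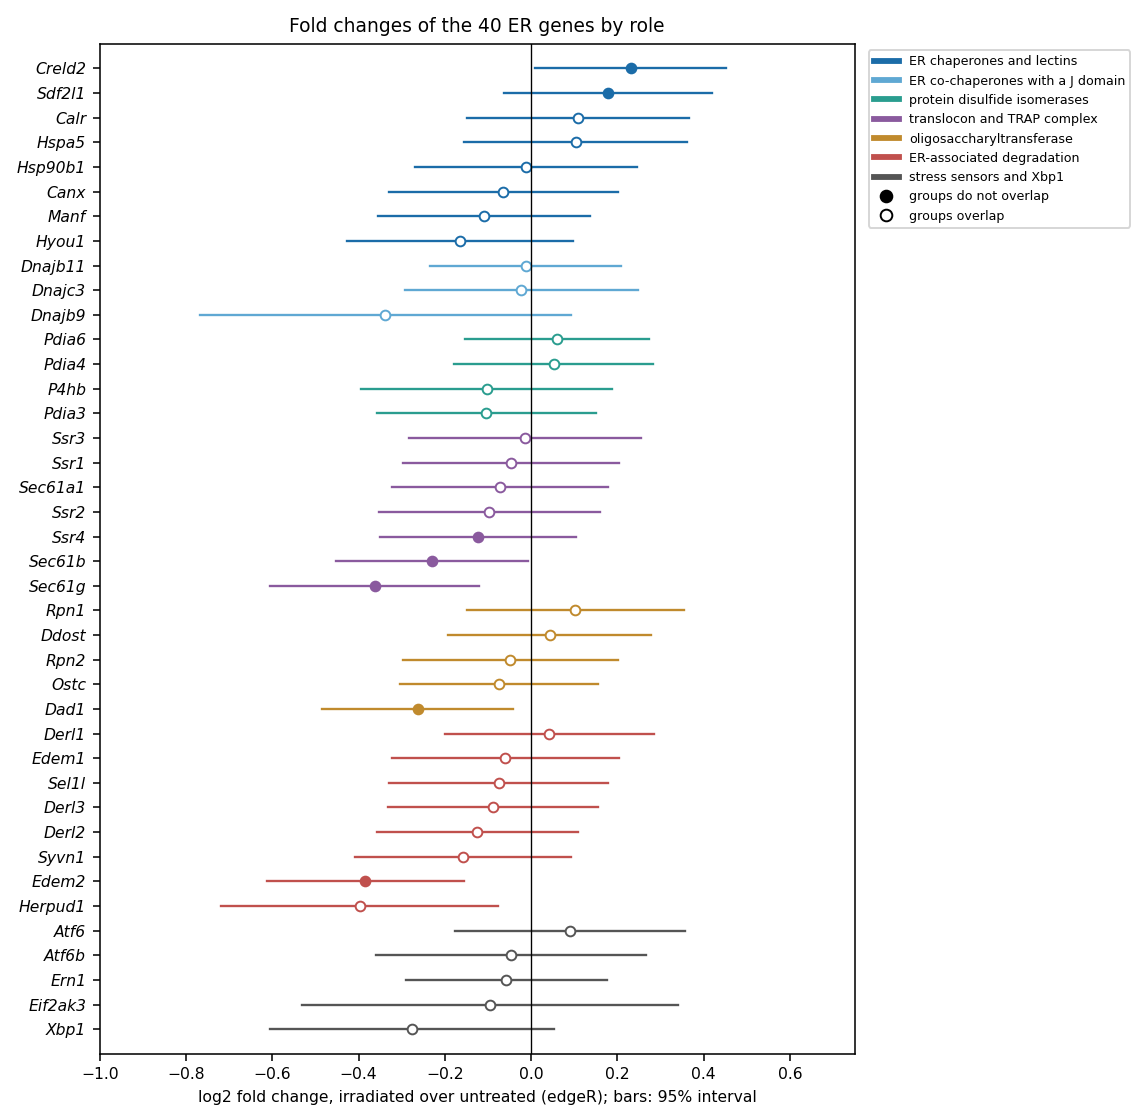
The log2 fold change (irradiated over untreated, horizontal axis) of each of the 40 ER genes, grouped and coloured by role, with its 95% interval as a bar. Filled points mark the 7 genes whose 3 untreated and 3 irradiated libraries do not overlap, and all points lie between -0.40 and 0.23.

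The groups did not overlap for 7 of the 40 genes, 2 with the irradiated libraries higher (Creld2 and Sdf2l1) and 5 with them lower (Edem2, Sec61g, Dad1, Sec61b and Ssr4). Among all tested genes 21.2% did not overlap, 10.6% in each direction, so the share among the 40 was near the background. Below 0 on the log2 scale were 30 of the 40 fold changes, against 50.9% of all tested genes, and the median was -0.07 against -0.01 over all genes. That majority depended mainly on irradiated replicate 2 and in part on untreated replicate 1. Without irradiated replicate 2 the count was 18 below 0 and 22 above, with a median of 0.01. Without untreated replicate 1 it was 23 below and 17 above, with a median of -0.02. Leaving out any other single library kept 29 to 32 below 0, with medians from -0.14 to -0.06. Scaling by library totals alone moved the median of all genes to 0.14 and that of the 40 to 0.08, with 9 below 0 and 31 above, so the genes' median remained 0.06 below that of all genes under TMM and under totals.

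Taken library by library, many of the 40 genes had the same libraries at their extremes. Irradiated replicate 2 held the lowest value of the 6 libraries for 22 of the 40 genes, where it was lowest for 20.4% of all tested genes. It held the highest value for 0 of the 40, against 18.7% of all tested genes. Untreated replicate 1 held the highest value for 19 of the 40, against 15.9% of all tested genes. Irradiated replicate 3 was highest for 9 and lowest for 0, against 15.3% and 16.8% of all tested genes. Summed over the 40 genes, the TMM-scaled level was 6833, 6236 and 6078 CPM in the untreated and 6039, 5509 and 6610 CPM in the irradiated libraries. Scaled by library totals alone, the same sums were 6504, 5615 and 6071 CPM and 6285, 6465 and 6322 CPM. Irradiated replicate 2 was thus the lowest of the 6 under TMM and below only untreated replicate 1 under totals, and it carried the largest TMM factor, 1.17, of the 6. The part of depth and alignment in this pattern was not tested.

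**Figure D2:**
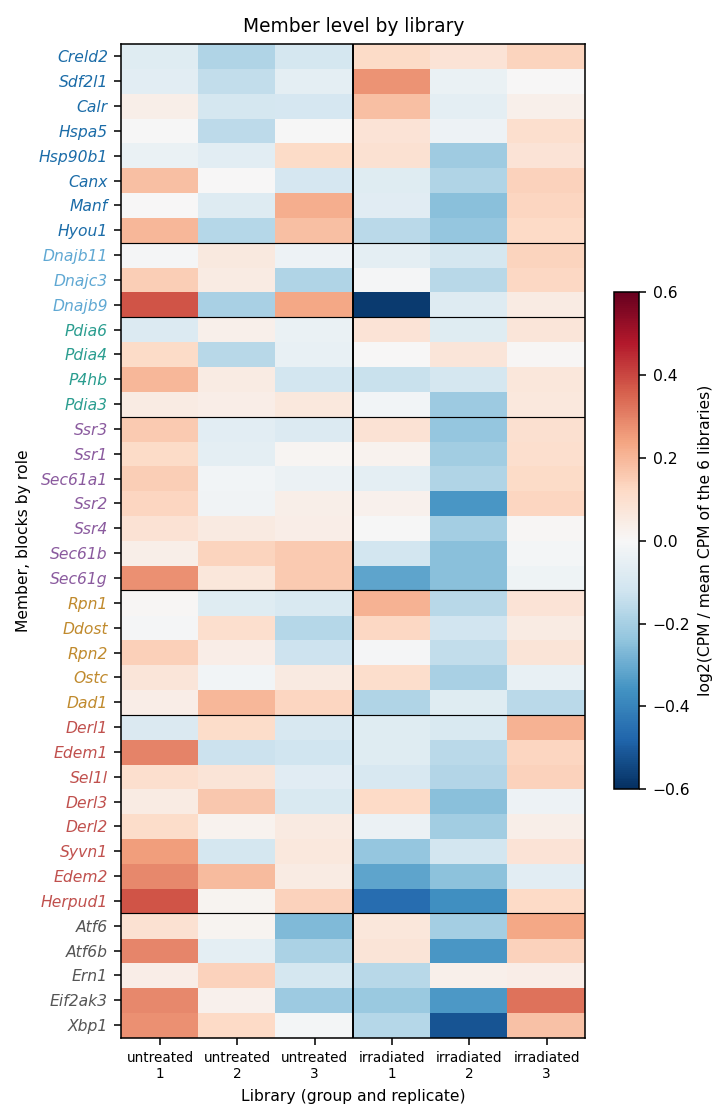
Colour gives, for each of the 40 genes (rows, in blocks by role) in each of the 6 libraries (columns), the log2 ratio of its TMM-scaled CPM to its mean over the 6 libraries. Irradiated replicate 2 is lowest for 22 genes and untreated replicate 1 highest for 19.

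The levels of the 40 genes themselves spanned a wide range. As CPM per kilobase of exon (TMM-scaled, the scale used wherever genes are set against each other), P4hb led at 412 ± 43.6 without irradiation and 383 ± 29.5 with it (SD over 3 libraries each). P4hb encodes protein disulfide isomerase, the main enzyme that forms and reshuffles disulfide bonds in the ER. Below it, at 84.8 to 119 on the mean of both groups, came Xbp1, Calr, Herpud1, Hspa5 and Pdia3. In untreated glands Xbp1 (130 ± 12.9) and Herpud1 (128 ± 16.4) stood above Calr (113 ± 6.31) and Hspa5 (107 ± 6.53). In irradiated glands the order was Calr (122 ± 10.3), Hspa5 (115 ± 5.61), Xbp1 (107 ± 25.7) and Herpud1 (97.3 ± 22.0). Neighbours among these 4 lay within about their SDs of each other, while P4hb stood clear of all of them. At the low end were Syvn1 (10.3), Atf6b (7.61), Eif2ak3 (6.77), Ern1 (6.06), Atf6 (4.04) and Derl2 (3.23), so 4 of the 5 stress signalling genes were among the 6 lowest and the remaining one, Xbp1, was second from the top. With the length of the main annotated transcript in place of all exon bases, 9 of the 10 highest and all 5 lowest were the same genes, and Ssr4 moved from place 16 to place 5.

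**Figure D3:**
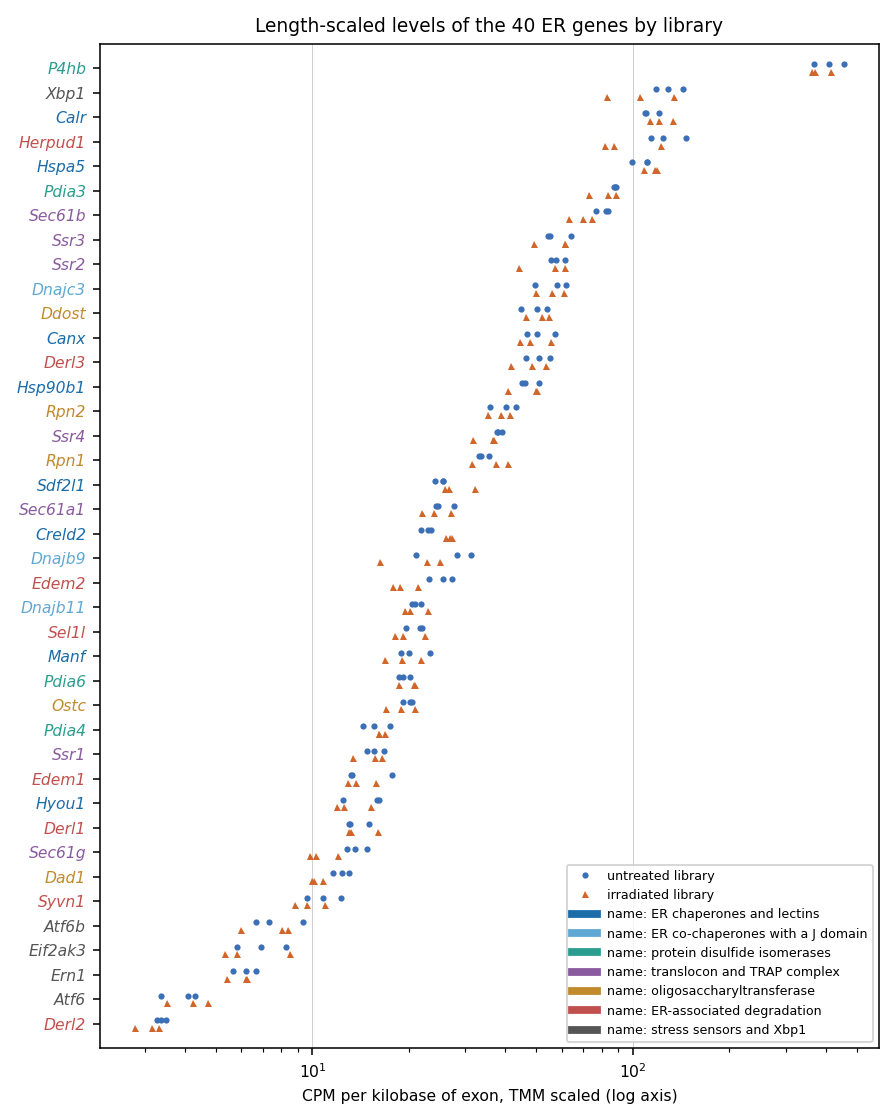
Length-scaled level (horizontal log axis, TMM-scaled CPM per kilobase of exon) of each of the 40 genes in each library, ordered by mean, with names coloured by role. P4hb is highest at a mean of 398 and Derl2 lowest at 3.23, and circles (untreated) and triangles (irradiated) interleave for most genes.

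Some of these genes are known to carry an ER stress response element near their start. Of the genes with a sequence to search, 11 held an ERSE or ERSE-II and 22 held neither. The list was named from genes of this very response, so a high share was set by the choice and is no separate support for the list. The element ERSE, searched on both strands as CCAAT, 9 bases of any kind and CCACG, from 250 bases before to 50 bases after each RefSeq start (GRCm38.p6), was present for 9 of the 33 genes with a sequence to search, or 27.3%. Among all 27025 genes with such a window, tested here or not, it was present for 37, or 0.137%. Of the genes holding it, 24.3% were among the 40. The shorter element ERSE-II, searched as ATTGG, 1 base of any kind and CCACG, was found for Dnajb11 and Herpud1, 6.06% of the 33 against 0.0444% of all genes. The core of the Xbp1-bound UPRE, searched as TGACGTGG, was in 0 of the 33 windows and in 0.714% of all genes. The 5 letters CCACG, which end both ERSE forms, were in 75.8% of the 33 and in 35.5% of all genes. A match is a description of the letters and not a binding site.

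The elements of 7 genes are shown because they cover the main chaperones, the genes at both ends of the fold changes (Creld2 and Herpud1) and the ligase Syvn1. They are printed 5′ to 3′ on the strand where the motif reads as written, in build GRCm38.p6, with the motif in capitals and its flanks in lower case. The ERSE of Hspa5 lay 65 to 47 bases before the start, that of Calr 162 to 144, that of Canx 145 to 127, that of Creld2 126 to 108 and that of Syvn1 44 to 26, and the ERSE-II of Herpud1 52 to 42. Hsp90b1 carried a pair of elements, 212 to 194 and 107 to 89 bases before the start.
Hspa5, chr2:34772020-34772048, plus strand: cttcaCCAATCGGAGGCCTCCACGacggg
Hsp90b1, chr10:86705618-86705676, minus strand: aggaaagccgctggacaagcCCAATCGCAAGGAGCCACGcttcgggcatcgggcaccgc
Hsp90b1, chr10:86705513-86705571, plus strand: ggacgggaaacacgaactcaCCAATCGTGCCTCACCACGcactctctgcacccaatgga
Calr, chr8:84847055-84847113, plus strand: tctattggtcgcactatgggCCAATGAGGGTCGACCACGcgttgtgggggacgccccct
Canx, chr11:50325780-50325838, minus strand: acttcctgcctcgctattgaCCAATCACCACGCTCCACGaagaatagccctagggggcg
Creld2, chr15:88819500-88819558, minus strand: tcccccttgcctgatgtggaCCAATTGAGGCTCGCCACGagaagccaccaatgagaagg
Syvn1, chr19:6046512-6046570, plus strand: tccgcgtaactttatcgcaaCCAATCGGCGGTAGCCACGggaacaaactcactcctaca
Herpud1, chr8:94386357-94386407, plus strand: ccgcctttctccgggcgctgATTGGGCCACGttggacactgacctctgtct

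Genes with one of these elements had fold changes on both sides of 0. The 11 genes with an ERSE or ERSE-II (Hspa5, Hsp90b1, Calr, Canx, Pdia6, Dnajb11, Dnajc3, Creld2, Herpud1, Syvn1 and Derl3) had log2 fold changes from -0.40 to 0.23 with a median of -0.01, 7 below 0 and 4 above. The 22 with a window but neither element had a median of -0.09, 18 below 0 and 4 above. The extremes of all 40 genes, Herpud1 and Creld2, were both in the first set, at opposite ends. The groups did not overlap for 1 of the 11, Creld2, and for 6 of the 22, 1 higher and 5 lower, against 21.2% of all tested genes. No test of the difference between these sets was made.

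The stress signalling genes come first by role. Xbp1 (ENSMUSG00000020484, chr11:5520659-5525893, plus strand) encodes the transcription factor that Ire1 activates by splicing its mRNA, and gene counts cannot separate the spliced from the unspliced form. Its level was 466, 419.8 and 383 CPM in untreated and 343, 269 and 435 CPM in irradiated libraries. Irradiated replicates 1 and 2 lay below all untreated libraries, and irradiated replicate 3 lay among them. Its log2 fold change was -0.28 (SE 0.16, adjusted p = 0.431) and shrank to -0.12 without irradiated replicate 2. Eif2ak3 (ENSMUSG00000031668, chr6:70844515-70905245, plus strand), the kinase Perk that slows translation, stood at 49.9, 41.5 and 35.1 CPM in untreated and 34.96, 32.1 and 51.1 CPM in irradiated libraries. Both its lowest and its highest value were in irradiated glands, and its log2 fold change was -0.09 (SE 0.19, adjusted p = 0.873). In the annotation 8.05% of the exon bases of Eif2ak3 overlap a gene on the opposite strand.

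Ern1 (ENSMUSG00000020715, chr11:106394650-106487852, minus strand), the sensor and endonuclease Ire1, stood at 50.9, 54.6 and 46.1 CPM in untreated and 44.1, 50.5 and 50.9 CPM in irradiated libraries. The groups overlapped and the log2 fold change was -0.06 (SE 0.11, adjusted p = 0.861). Its relative Ern2, known from mucus-secreting epithelia, had no count in any of the 6 libraries. Atf6 (ENSMUSG00000026663, chr1:170704674-170867771, minus strand), the membrane-bound factor freed by cleavage in the Golgi, stood at 39.7, 37.7 and 31.0 CPM in untreated and 39.0, 32.4 and 43.7 CPM in irradiated libraries. Here too the groups overlapped, with a log2 fold change of 0.09 (SE 0.13, adjusted p = 0.797). Its relative Atf6b (ENSMUSG00000015461, chr17:34647146-34655074, plus strand) stood at 25.7, 20.1 and 18.4 CPM in untreated and 22.1, 16.5 and 23.1 CPM in irradiated libraries. Irradiated replicate 2 gave the lowest Atf6b value, 137 reads, which was also the lowest count of any of the 40 genes, and the log2 fold change was -0.05 (SE 0.15, adjusted p = 0.920). Thus 0 of the 5 stress signalling genes passed the test, 4 were below 0 and 1 was above, with a median of -0.06. Without untreated replicate 1 they were 2 below and 3 above with a median of 0.04, and without irradiated replicate 2 again 2 and 3 with a median of 0.03. Leaving out the other libraries gave medians from -0.15 to -0.01.

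Among the 8 ER chaperones and lectins, 0 passed the test, 4 fold changes were below 0 and 4 above, and the median was 0.05, from -0.001 to 0.11 with a library left out. Hspa5 (ENSMUSG00000026864, chr2:34771970-34777547, plus strand) encodes BiP, the Hsp70 of the ER, which also holds the sensors inactive. It stood at 467, 419.8 and 468 CPM in untreated and 496, 458 and 502 CPM in irradiated libraries. Irradiated replicates 1 and 3 lay above all untreated libraries and irradiated replicate 2 lay among them. The log2 fold change was 0.10 (SE 0.12, adjusted p = 0.752) with a 95% interval from -0.16 to 0.36. Calr (ENSMUSG00000003814, chr8:84841850-84846934, minus strand), the soluble lectin calreticulin, stood at 347.5, 315 and 317 CPM in untreated and 384, 326 and 347 CPM in irradiated libraries. Only irradiated replicate 1 exceeded the highest untreated library, and the log2 fold change was 0.11 (SE 0.12, adjusted p = 0.734). A pseudogene named for Calr is annotated, so reads from that copy are a source of uncertainty.

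Creld2 and Sdf2l1 were the pair of chaperone genes whose irradiated libraries lay above all untreated ones. Creld2 (ENSMUSG00000023272, chr15:88819646-88826683, plus strand), a secreted and ER-resident protein known as an ER stress marker, stood at 32.1, 29.8 and 31.4 CPM in untreated and 36.6, 35.7 and 37.1 CPM in irradiated libraries. Its 3 irradiated values fell in a narrow band clear of the untreated ones. This gave a log2 fold change of 0.23 (SE 0.11, adjusted p = 0.309), which over 14 other settings ran from 0.20 to 0.38. Sdf2l1 (ENSMUSG00000022769, chr16:17130138-17132383, minus strand), a partner of BiP and its J-domain co-chaperones, stood at 28.3, 26.7 and 28.4 CPM in untreated and 35.7, 28.7 and 29.6 CPM in irradiated libraries. Irradiated replicate 1 stood apart from the rest, and the other two irradiated values lay just above the untreated ones. The log2 fold change of 0.18 (SE 0.11, adjusted p = 0.503) was 0.07 without irradiated replicate 1 and 0.35 with the correction for transcript length and GC content.

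The other chaperones overlapped between groups. Hsp90b1, the Hsp90 of the ER known as Grp94, had a log2 fold change of -0.01, and 15.7% of its exon bases overlap other annotated genes. Canx, the membrane-bound lectin calnexin, had -0.06. Manf, a secreted factor that binds BiP, had -0.11, with 9.25% of its exon bases shared with other genes. Hyou1, the nucleotide exchange factor of BiP, had -0.16 (adjusted p = 0.589). The signs of Hsp90b1 and Canx were not stable. Hsp90b1 became 0.08 without irradiated replicate 2 and 0.05 without untreated replicate 3, and Canx became 0.01 without irradiated replicate 2 or without untreated replicate 1.

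The 3 J-domain co-chaperones, which deliver clients to BiP, all had fold changes below 0, with a median of -0.02 and 0 past the test. Without irradiated replicate 2 the median was 0.04, and without untreated replicate 3 or irradiated replicate 3 it was -0.11 and -0.10. Dnajb9 (ENSMUSG00000014905, chr12:44205559-44210326, minus strand), also called ERdj4, is a known target of Xbp1 and a repressor of Ire1. It stood at 79.7, 53.8 and 72.2 CPM in untreated and 41.4, 58.2 and 63.5 CPM in irradiated libraries. The groups overlapped through untreated replicate 2, and the log2 fold change was -0.34 (SE 0.19, adjusted p = 0.461). It was -0.17 without irradiated replicate 1 and -0.49 without untreated replicate 2. Dnajb11 (ERdj3) and Dnajc3 (p58IPK) lay closer to 0, at -0.01 and -0.02, and each turned positive when certain single libraries were left out. For Dnajb11 these were irradiated replicate 2 (0.04), irradiated replicate 1 (0.01) and untreated replicate 2 (0.01), and for Dnajc3 irradiated replicate 2 (0.05) and untreated replicate 1 (0.05).

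The 4 disulfide isomerases were split, 2 below 0 and 2 above, with a median of -0.03, from -0.07 to 0.003 with a library left out, and 0 past the test. P4hb (ENSMUSG00000025130, chr11:120560298-120573253, minus strand) gave 1304, 1176 and 1054.5 CPM in untreated and 1038, 1059 and 1194 CPM in irradiated libraries. The groups overlapped, and the log2 fold change was -0.10 (SE 0.14, adjusted p = 0.782). Pdia3 (ENSMUSG00000027248, chr2:121413775-121438687, plus strand), the isomerase that works with calnexin and calreticulin, gave 276, 274 and 278 CPM in untreated and 263, 229 and 278 CPM in irradiated libraries. Its untreated values were almost identical and irradiated replicate 2 was the low one, so that the log2 fold change of -0.10 (SE 0.12, adjusted p = 0.743) became -0.03 without it. Pdia4 and Pdia6 had log2 fold changes of 0.05 and 0.06.

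The translocon and TRAP genes all had fold changes below 0, 7 of 7, with a median of -0.10, and 0 passed the test. Sec61g (ENSMUSG00000078974, chr11:16500530-16508484, minus strand), a small subunit of the Sec61 channel, stood at 36.5, 31.6 and 33.6 CPM in untreated and 24.2, 25.3 and 29.6 CPM in irradiated libraries. All irradiated libraries lay below all untreated ones. The log2 fold change was -0.36 (SE 0.12, adjusted p = 0.133), and it stayed between -0.46 and -0.22 over 14 other settings. Sec61b (ENSMUSG00000053317, chr4:47474658-47483242, plus strand), the other small subunit, stood at 97.8, 105 and 107 CPM in untreated and 88.6, 80.2 and 94.8 CPM in irradiated libraries. Here as well the groups did not overlap, with a log2 fold change of -0.23 (SE 0.11, adjusted p = 0.319). That value became 0.01 once transcript length and GC content were corrected for, while Sec61g kept -0.35. When the tested genes were divided by transcript length into 5 nearly equal bins, the shortest bin had a median log2 fold change of -0.17 and the longest 0.10. The 40 genes in the same bins, from shortest to longest, had medians of -0.08, -0.10, -0.01, -0.11 and -0.06, with 5 to 15 genes in each.

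Ssr4 (ENSMUSG00000002014, chrX:73787028-73790830, plus strand), the delta subunit of TRAP, stood at 121, 118 and 117 CPM in untreated and 113, 98.4 and 114 CPM in irradiated libraries. The groups did not overlap, but irradiated replicates 1 and 3 lay just under the untreated range, and the log2 fold change was -0.12 (SE 0.11, adjusted p = 0.645). Sec61a1, the pore-forming subunit, had -0.07, and the TRAP subunits Ssr1, Ssr2 and Ssr3 had -0.05, -0.10 and -0.01. With irradiated replicate 2 left out, 4 of the 7 genes remained below 0 and the median was -0.003. In the annotation 8.16% of the exon bases of Sec61a1 and 12.8% of those of Ssr2 overlap a gene on the opposite strand.

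Of the 5 oligosaccharyltransferase subunits, 3 had fold changes below 0 and 2 above, with a median of -0.05 and 0 past the test. The median was 0.01 without untreated replicate 1 or without irradiated replicate 2. Dad1 (ENSMUSG00000022174, chr14:54235479-54254104, minus strand), a small subunit first known as a defender against cell death, stood at 45.5, 50.8 and 48.4 CPM in untreated and 39.0, 42.1 and 39.5 CPM in irradiated libraries. The irradiated values lay below all untreated ones. Its log2 fold change was -0.26 (SE 0.11, adjusted p = 0.240) and ran from -0.33 to -0.11 over the other settings. The ribophorins Rpn1 and Rpn2 had 0.10 and -0.05, and Ddost and Ostc had 0.04 and -0.07.

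Of the 8 genes of ER-associated degradation, 7 had fold changes below 0 and 1 above, with a median of -0.11, and 0 passed the test. Without irradiated replicate 2 the count was 5 below and 3 above with a median of -0.04, and without irradiated replicate 3 it was 8 below with a median of -0.18. With the correction for transcript length and GC content it was 7 below with a median of -0.20, where all genes had -0.04. Edem2 (ENSMUSG00000038312, chr2:155701677-155729475, minus strand), needed for the first mannose trimming that marks a glycoprotein for degradation, stood at 94.3, 88.3 and 80.0 CPM in untreated and 62.0, 65.2 and 74.0 CPM in irradiated libraries. All irradiated libraries lay below all untreated ones. Its log2 fold change of -0.38 (SE 0.11, 95% interval -0.61 to -0.16) had the smallest adjusted p of the 40 genes, 0.0908, and ran from -0.46 to -0.24 over the other settings. Its relative Edem1, a known Xbp1 target, had -0.06.

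Herpud1 (ENSMUSG00000031770, chr8:94386438-94395377, plus strand), a membrane protein of the Hrd1 ligase complex and an early stress-induced gene, had the most negative fold change of the 40. It stood at 341, 266 and 289.8 CPM in untreated and 192, 204 and 286 CPM in irradiated libraries. Irradiated replicates 1 and 2 lay well below the untreated range, and irradiated replicate 3 lay within it. For this gene the log2 fold change was -0.40 (SE 0.15, adjusted p = 0.216). Without irradiated replicate 3 it was -0.60 with an adjusted p of 0.0395, which was the single call among the 40 genes over the settings run. The other parts of the complex, the ligase Syvn1 (Hrd1) and its partner Sel1l, had -0.16 and -0.08. The derlins Derl1, Derl2 and Derl3, channel proteins for export, had 0.04, -0.13 and -0.09.

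Summed by role, no group of genes separated the irradiated from the untreated libraries under TMM scaling. The ratio of the irradiated to the untreated mean was lowest for the stress signalling genes (0.865) and for ER-associated degradation (0.867), and highest for the chaperones (1.03). The degradation genes summed to 971, 858 and 838 CPM in untreated and 725, 703 and 884 CPM in irradiated libraries, and irradiated replicate 3 lay among the untreated ones. The stress signalling sum, most of it Xbp1, was 633, 574 and 513 CPM in untreated and 483, 401 and 604 CPM in irradiated libraries. Under library totals alone the ratio was 0.951 for the stress signalling genes and 0.957 for the degradation genes, and the chaperone sum came to lie higher in all irradiated libraries, at 1600, 1603 and 1495 CPM against 1442, 1231 and 1466 CPM, a ratio of 1.14. No test was made of these sums.

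**Figure D4:**
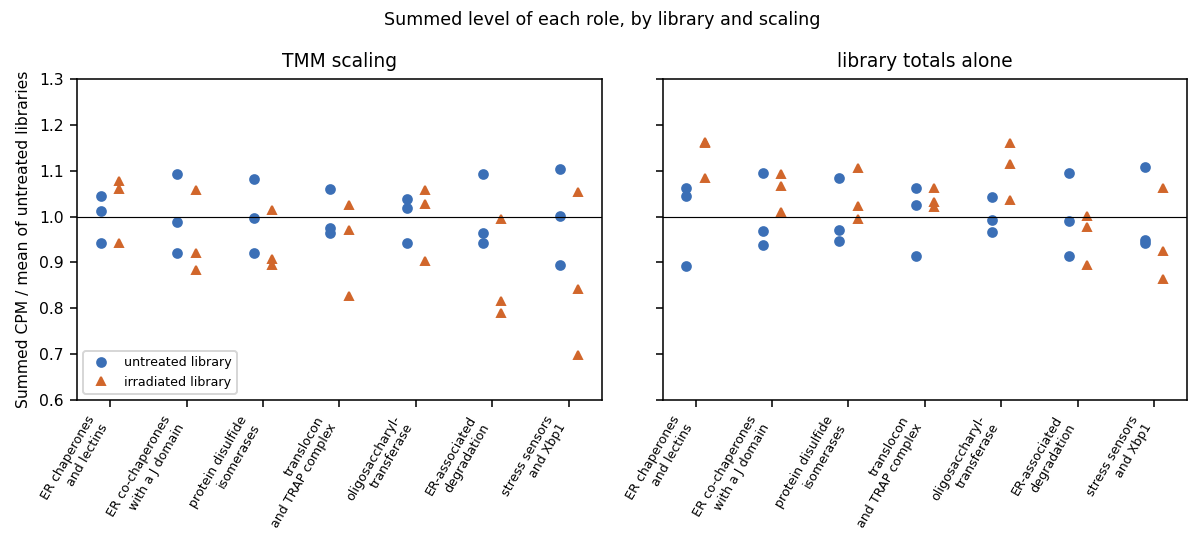
Summed CPM of each role in each library divided by the untreated mean of that role (vertical axis, no unit), under TMM scaling on the left and library totals alone on the right. The groups overlap for every role on the left, and on the right the chaperones alone do not.

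Spread between libraries was uneven among the genes. The median coefficient of variation (SD over mean, in CPM) was 8.23% in untreated and 10.7% in irradiated libraries for the 40 genes. For the 3201 tested genes at or above the lowest level among the 40 it was 7.85% and 9.26%. In irradiated glands the widest were Eif2ak3 (26.0%), Xbp1 (23.9%), Herpud1 (22.6%) and Dnajb9 (21.3%). The narrowest were Creld2 (1.95%), Pdia4 (2.71%), Dad1 (4.09%) and Hspa5 (4.89%). With 3 libraries each such value is imprecise.

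Other genes of the same pathways, 143 in 6 lists that hold none of the 40, also mostly missed the threshold. Of the 138 that were tested, 0 rose and 1 fell, with 95 fold changes below 0 and 43 above and a median of -0.09. Over all tested genes 1.00% were called, 50.9% of fold changes were below 0 and the median was -0.01. How far the signs of these genes rest on single libraries or on the scaling is not given here. The groups did not overlap for 32, 7 higher and 25 lower, against 10.6% of all genes in each direction. The gene that fell was Nupr1, a stress-induced nuclear protein, at 186 ± 18.5 CPM without irradiation and 97.9 ± 9.47 CPM with it (SD, n = 3 each), with a log2 fold change of -0.92 (SE 0.12) and an adjusted p of 3.26e-04. It belongs to the 26 tested stress signalling genes, whose median was -0.12 with 19 below 0. Its known regulator Atf4 had a log2 fold change of -0.26 (adjusted p = 0.316), and Ddit3, which encodes Chop, had -0.24 (adjusted p = 0.620).

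In the other 5 lists 0 genes passed the test. The 25 tested folding genes had a median of -0.07, and those of highest length-scaled level, Txndc5 and Selenof, had -0.19 and -0.10. The 19 targeting and translocation genes had a median of -0.15 with 15 below 0, where the genes of highest level, Serp1 and Tram1, had 0.05 and -0.04. The 26 N-glycosylation genes were divided 14 below and 12 above 0, with Mlec at 0.07 and Krtcap2, a subunit of the oligosaccharyltransferase, at -0.29 (adjusted p = 0.186), where the irradiated libraries lay below the untreated ones. The 22 degradation genes had a median of -0.09, with Os9 at -0.16 and Selenos at -0.22. The 20 genes of ER exit and retrieval had a median of -0.06, with the cargo receptors Tmed2 at -0.05 and Mcfd2 at -0.19 (adjusted p = 0.501), the latter lower in all irradiated libraries.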

How the data were processed

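RNA was extracted from parotid gland and made into libraries with a strand-specific total RNA kit, per the labels. For each sample the authors deposited raw read counts for every Ensembl gene. The tools bcl2fastq, HISAT2 and HTSeq and the build mm10 are named in the submitters' processing notes. Versions, annotation release and the strand setting of the counting are not given in the sources used here, so overlapping genes on opposite strands cannot be told apart with certainty. Rows naming no gene held 32.4% to 40.7% of reads and were left out.

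Groups came from the treatment label. All genes were tested across the 6 samples with edgeR 4.0.16 in R 4.3.3 (quasi-likelihood, robust, TMM, filterByExpr with a minimum count of 10), with Benjamini-Hochberg adjustment over 12885 genes and a threshold of 0.05, two-sided. CPM values carry the TMM factor, and intervals use the fit's degrees of freedom. Symbols, coordinates and exon lengths came from GENCODE M21 (52403 of 52636 genes matched), and 33 of the 40 genes had a RefSeq promoter window. The procedure was tested on simulated data. Alternatives were other scalings, no filter, DESeq2 1.42.0, limma-voom (limma 3.58.1), no robust shrinkage, a replicate block, an offset for transcript length and GC content, and each library left out.

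The 40 genes and all lists were chosen with earlier results of these data known. Values by library are given for the 6 genes with the smallest p, the 6 of highest length-scaled level, the stress signalling genes and those whose groups do not overlap. Dnajb9 was added after its values were seen. From each other list the called genes are named, or else the 2 of highest length-scaled level. Atf4, Ddit3, Ern2 and the single acinar markers were also added after their values were seen.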

Additional observations from a re-analysis of the deposited data

How the results depend on the processing

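Among the 40 genes the count past the test was 0 in each setting with all libraries, with 4 to 7 at an unadjusted p under 0.05, and 0 to 1 when a library was left out. The exception was Herpud1 without irradiated replicate 3. Library totals alone shifted all genes upward and by that shift changed the sign of 21 of the 40. In the other 13 settings 34 of 520 fold changes had another sign than in the report, and 22 genes kept theirs throughout. Calls over all genes numbered 282 with library totals alone (260 higher and 22 lower, against 84 and 45), 518 with no filter, 26 without robust shrinkage, and 45 to 155 with a library left out, lowest without irradiated replicate 1 and 77 without untreated replicate 2. Among the other pathway genes 2 were called with library totals, 5 with no filter, 3 with the length and GC correction, and 1 to 2 with a library left out. The replicate block gave 53 calls over all genes, 2 among the other pathway genes and 0 among the 40. Deviations of same-numbered libraries from their group means had correlations of 0.02, -0.11 and -0.11, and not every library correlated best with its own number. The labels state no pairing, and 3 libraries per group are too few to settle whether same-numbered libraries are paired. The causes of these differences were not tested. The lowest depth was 7108359 counts, in irradiated replicate 2.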

Other observations

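Outside the report's named genes, a few stress-response genes resembled Herpud1 and Xbp1 in having untreated replicate 1 and irradiated replicate 3 highest in their groups. That order was not particular to stress genes. P4hb, Canx and Sec61a1 had it too, and its share over all genes was not counted. The stress-response genes given here were picked after their values were seen. Chac1, a glutathione-degrading enzyme induced through Atf4, stood at 21.7, 8.13 and 12.9 CPM in untreated and 2.86, 4.57 and 13.5 CPM in irradiated libraries, with a log2 fold change of -1.04 (edgeR adjusted p = 0.614). Trib3, a pseudokinase of the same branch, stood at 5.68, 1.40 and 2.47 CPM and at 0.133, 1.56 and 2.85 CPM, with a log2 fold change of -1.12 (edgeR adjusted p = 0.686). Within each group these values differed several-fold between libraries, and neither gene passed the test.

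Of the other pathway genes that missed the threshold, the 4 with the smallest adjusted p were all lower in irradiated glands. They were Srp9, a subunit of the signal recognition particle (log2 fold change -0.46, edgeR adjusted p = 0.0561), Alg1, a mannosyltransferase (-0.69, 0.0753), Erp29, a luminal folding factor (-0.39, 0.0778), and Aup1, a degradation factor (-0.39, 0.0793). The next was Sesn2, a stress-induced sestrin, which was higher (0.97, 0.104). Ero1b, an ER oxidase that also carries an ERSE in its promoter window, stood at 116, 104 and 100.2 CPM in untreated and 86.8, 73.1 and 99.98 CPM in irradiated libraries (log2 fold change -0.30, edgeR adjusted p = 0.228).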
